A study of Mus musculus with 12 samples.

Results

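The plasminogen system dissolves fibrin and trims matrix in healing skin. Urokinase (Plau) and tissue-type plasminogen activator (Plat) cut plasminogen into plasmin, the receptor Plaur holds urokinase at the cell surface, and serpins such as Serpine2 and Serpinb2 block the activators by acting as suicide substrates. Tissue factor (F3) starts the clotting cascade that lays fibrin down, and Tfpi2, a Kunitz-type inhibitor, blocks plasmin and other serine proteases in the matrix. These 7 genes were taken by symbol from the 35976 genes listed in RNA-seq counts of mouse scars, and all 7 were among the 18853 genes with enough counts to be tested.

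The scars came from male mice of 8 to 12 weeks, and each mouse gave 1 library. The 4 groups, of 3 mice each, were Tem1WT/WT sham, Tem1WT/WT traction, Tem1lacZ/lacZ sham and Tem1lacZ/lacZ traction. Tem1, listed as Cd248, encodes a surface glycoprotein of fibroblasts and pericytes, and in Tem1lacZ/lacZ mice, a line backcrossed to C57BL/6J for 10 generations, the lacZ reporter replaces its single exon in every cell, so the line does not separate fibroblasts from other cells. All mice received a 1.5-cm wound of the back and a plastic device at 6 days; the device was lengthened by 1 mm a day, 8 mm in all, in the traction groups, and was not lengthened in the sham groups. RNA of part of each scar, its margins removed, was sequenced from poly(A) libraries, so each value is a level in mixed tissue, in which fewer cells of a type and less RNA per cell cannot be told apart.

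The libraries held 41536788 to 64644293 counts on genes, with a median of 48173798. Levels are given as CPM, the counts after TMM scaling of each library to the same size, and the mean ± SD is over the 3 libraries of a group. Cd248 (GRCm38 chr19:5068078-5070682) stood at 149.8 ± 38.3 CPM in the sham and 208.7 ± 123 CPM in the traction group of Tem1WT/WT mice, and had 4 to 8 counts in the sham and 0 to 13 counts in the traction libraries of Tem1lacZ/lacZ mice, so every library carried the genotype of its label. All 10 fibroblast markers had counts in every library. Replicate 1 of the Tem1WT/WT traction group stood apart: its summed level of 12 neutrophil markers was 7740 CPM, against 771.3 and 377.7 CPM in replicates 2 and 3 of that group and 120.2 to 588.3 CPM in the other 9 libraries. All 12 markers were highest in it. Values without it are given beside those of the 7 genes in the comparisons that use it.

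The genes lie apart in the genome, apart from Serpine2 and Serpinb2 on the same chromosome. By GENCODE vM21 on GRCm38, Plau is at chr14:20836660-20843385 (plus strand), Plat at chr8:22757727-22782844 (plus), Plaur at chr7:24462484-24475968 (plus), Serpine2 at chr1:79794197-79861180 (minus), Serpinb2 at chr1:107511423-107535478 (plus), F3 at chr3:121723537-121735048 (plus) and Tfpi2 at chr6:3962595-3988919 (minus). Of these, only Serpinb2 shares exonic bases with another gene, 291 bases with Serpinb10 on the same strand, so a read there could be left uncounted or counted for either gene.

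Promoters were read because several of these genes were high in the same library. The promoter set used here, of RefSeq entries on GRCm38.p6, held 5 of the 7 genes (8 start sites). It held no entry for Plau and Plat, a gap of that set and not of the genes, which have 2 and 3 GENCODE transcripts. The 250 bases before each start were searched for the AP-1 letters TGANTCA, the same on both strands. AP-1 is the Fos and Jun family of immediate-early factors. The letters were found in 4 of the 5 genes, where 7.82% of the 27025 genes of the promoter table held them in at least 1 entry. By entry they were found in 5 of the 8, where 6.75% of all 32851 promoters of the same length held them, but the 2 entries of Serpinb2 overlap and hold the same match. Serpine2 had no match, which says only that these letters are not in that window. In replicate 1 of the Tem1WT/WT traction group, Plaur was 17.8, Serpinb2 4.52 and F3 4.28 times the mean of replicates 2 and 3. Tfpi2, which also held a match, was 1.14 times that mean, and Serpine2 was 1.665 times. The part of AP-1 in these levels was not tested. No match to the cAMP response letters TGACGTCA (1.55% of all promoters) or the TEAD letters GGAATG (12.6%) was found in any of the 8 entries. The matches are shown with 25 bases on each side, the 7 matched bases in capitals; the 2 windows of F3 overlap, and the entry of Tfpi2 is a start inside the gene.
Plaur, chr7:24462389-24462445, plus strand, bases -69 to -63 from the start: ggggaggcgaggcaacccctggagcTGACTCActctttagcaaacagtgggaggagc
Serpinb2, chr1:107511304-107511360, plus strand, bases -94 to -88 from the start: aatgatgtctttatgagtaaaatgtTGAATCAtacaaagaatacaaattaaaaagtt
F3, chr3:121723366-121723422, plus strand, bases -146 to -140 from the start: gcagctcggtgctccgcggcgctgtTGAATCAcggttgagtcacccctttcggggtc
F3, chr3:121723377-121723433, plus strand, bases -135 to -129 from the start: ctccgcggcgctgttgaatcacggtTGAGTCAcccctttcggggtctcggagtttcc
Tfpi2, chr6:3968421-3968477, minus strand, bases -77 to -71 from the start: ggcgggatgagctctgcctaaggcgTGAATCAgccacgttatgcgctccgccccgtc

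In the sham scars of Tem1WT/WT mice, F3 had the highest level per kilobase of merged exons among the 7 genes, 28.9 ± 5.61 CPM per kb, followed by Serpinb2 (21.9 ± 9.74), Plau (21.8 ± 4.32), Plat (18.2 ± 6.05), Tfpi2 (9.63 ± 3.37), Plaur (5.78 ± 2.54) and Serpine2 (5.18 ± 0.993). In that order, the step from Plat to Tfpi2 and the step from Tfpi2 to Plaur were larger than either SD, and the other 4 steps were not. In the traction scars of Tem1WT/WT mice Plaur came first, at 95.6 ± 141 CPM per kb, and Serpine2 came last, at 16.4 ± 5.91 CPM per kb, and no step between neighbours was larger than the larger SD. The first place of Plaur rested on replicate 1: without it the means were 14.5 CPM per kb for Plaur, the sixth of the 7, 36.2 for Plat, then the first, and 13.4 for Serpine2, still the last.

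**Figure D1:**
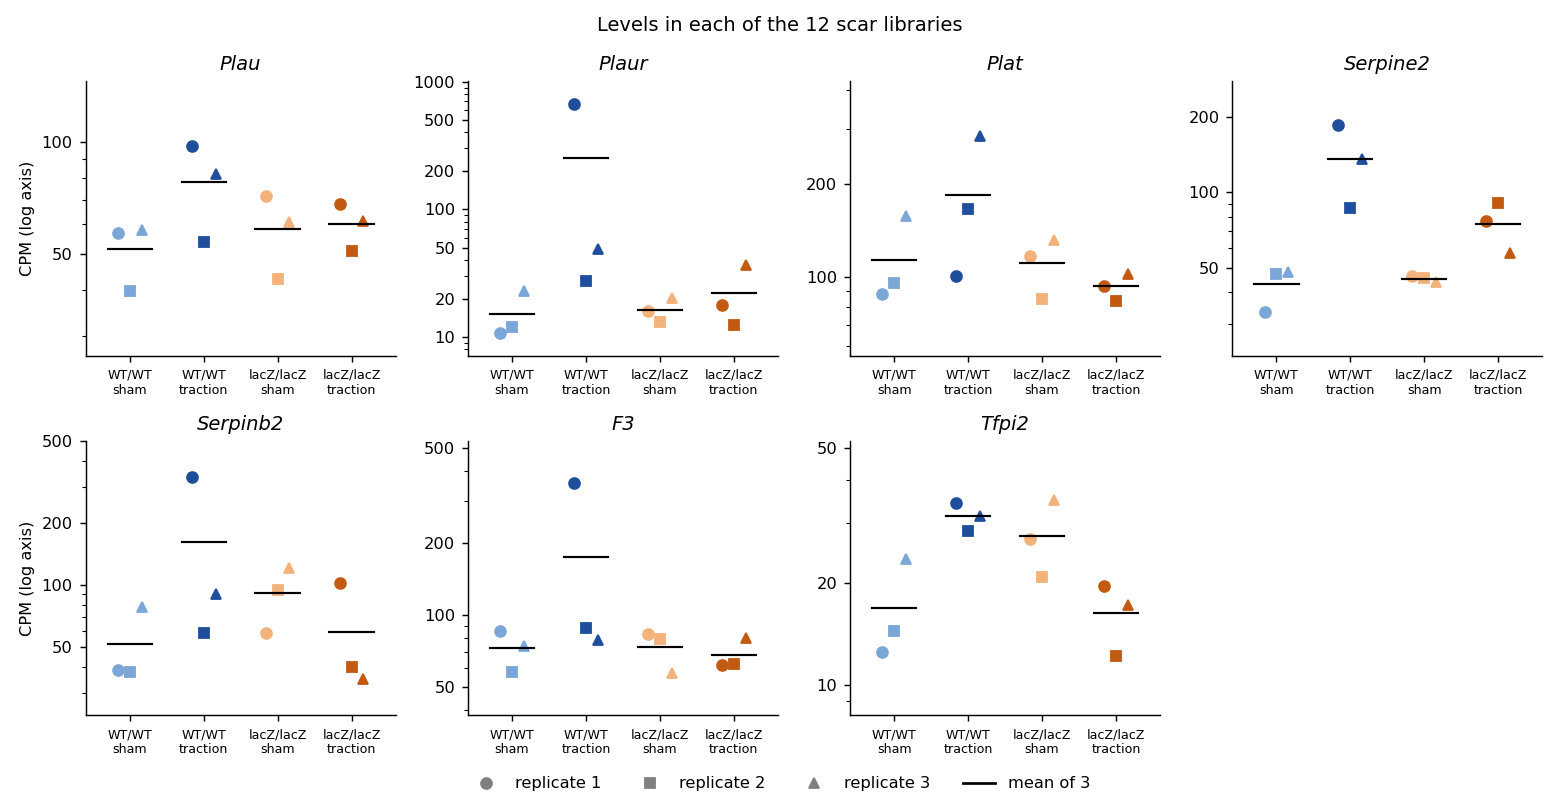
Level of each of the 7 genes in the 12 libraries, in CPM on a log axis, by group on the horizontal axis; symbols mark replicates and bars the mean of 3. Plaur, Serpinb2 and F3 have 1 point far above the rest, at 674.8, 335.8 and 357.1 CPM, all from replicate 1 of the Tem1WT/WT traction group, whereas the 3 points of Tfpi2 in that group lie together.

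The first comparison asked what traction did to scars of Tem1WT/WT mice. By edgeR's quasi-likelihood test Serpine2 and Plaur rose, and the other 5 genes had higher estimates that did not pass. All 7 estimates were above 0, with a median log2 fold change of 1.26 against -0.01 over all genes. By that test, 2 of the 7 were called higher at an adjusted p under 0.05, where 5.61% of all tested genes were called higher and 3.54% lower. Of the 7, 6 had an unadjusted p under 0.05, where 31.4% of all genes did. The traction and sham libraries did not overlap for 3 of the 7, where they did not overlap for 35.7% of all genes. DESeq2, which called 21.5% of all genes, called 5 of the 7, with Serpinb2 (adjusted p = 0.0376), F3 (0.0457) and Tfpi2 (0.0175) besides Serpine2 and Plaur. Limma-voom, which called 3.9% of all genes, called Serpine2 alone, and its estimate for Plaur was 1.86 (adjusted p = 0.172).

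Serpine2, protease nexin-1, inhibits thrombin as well as urokinase and tissue-type activator, and it rose with traction whether or not the library that stood apart was used. Its level was 33.5, 47.1 and 48.3 CPM in the Tem1WT/WT sham libraries and 184.8, 86.9 and 135.1 CPM in the Tem1WT/WT traction libraries. The lowest traction library was well above the highest sham library. The log2 fold change was 1.66 (SE 0.27, adjusted p = 0.0242). Without replicate 1 of the traction group it was 1.35 (SE 0.24, adjusted p = 0.0384). Leaving out a sham library mattered more to the call: it was 1.504 (adjusted p = 0.111) without Tem1WT/WT sham replicate 1 and 1.75 (adjusted p = 0.0869) without sham replicate 2, and in neither case did any gene of the whole table pass the test, against 1725 with all libraries.

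Plaur, the urokinase receptor, had the largest estimate of the 7, and most of it rested on a single library. The sham libraries of Tem1WT/WT mice stood at 10.7, 11.97 and 22.8 CPM and the traction libraries at 674.8, 27.3 and 48.6 CPM. Replicate 1 was 17.8 times the mean of the other two, and all 3 traction libraries were above all 3 sham libraries. The log2 fold change was 4.05 (SE 1.06, adjusted p = 0.0423) with every library and 1.30 (SE 0.46, adjusted p = 0.111) without replicate 1. The call was also lost without any one of the 3 Tem1WT/WT sham libraries (adjusted p = 0.149, 0.120 and 0.0727), without any one of the 3 Tem1lacZ/lacZ sham libraries (0.0575, 0.0586 and 0.0660) and without replicate 2 or 3 of the Tem1lacZ/lacZ traction group (0.0554 and 0.0541), in each case with a log2 fold change of at least 3.85. With replicate number added to the edgeR model the call was lost too (3.43, adjusted p = 0.0787).

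Serpinb2, plasminogen activator inhibitor 2, and F3, tissue factor, shared that shape. Serpinb2 stood at 38.7, 37.6 and 77.8 CPM in the Tem1WT/WT sham libraries and at 335.8, 58.5 and 90.2 CPM in the traction libraries. F3 stood at 86.3, 58.1 and 74.5 CPM in the same sham libraries and at 357.1, 88.6 and 78.4 CPM in the traction libraries. For both genes the groups overlapped, and replicate 1 was 4.52 times (Serpinb2) and 4.28 times (F3) the mean of the other 2 traction libraries. The log2 fold changes were 1.65 (SE 0.65, adjusted p = 0.112) for Serpinb2 and 1.26 (SE 0.49, adjusted p = 0.107) for F3. Leaving out traction replicate 1 gave 0.51 for Serpinb2 and 0.18 for F3 (adjusted p = 0.517 and 0.631), and leaving out traction replicate 2 gave 2.07 and 1.59 (adjusted p = 0.0498 and 0.0489), with 2861 genes of the whole table called (14.7%).

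Tfpi2 had its traction libraries of Tem1WT/WT mice close together. It stood at 12.5, 14.5 and 23.5 CPM in the sham and at 34.2, 28.4 and 31.5 CPM in the traction libraries, with no overlap. The log2 fold change was 0.90 (SE 0.27, adjusted p = 0.0577), on the far side of the threshold; it was 0.81 (adjusted p = 0.121) without replicate 1 of the traction group and 1.22 (adjusted p = 0.0391) without replicate 3 of the sham group, the highest of its sham libraries. With replicate number added to the edgeR model Tfpi2 was called (0.93, adjusted p = 0.0382).

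The estimates of the 2 activators were the smallest. Plau stood at 57.0, 39.7 and 57.9 CPM in the sham and at 97.5, 53.9 and 82.2 CPM in the traction libraries of Tem1WT/WT mice, a log2 fold change of 0.60 (SE 0.25, adjusted p = 0.138), or 0.82 (adjusted p = 0.0427) without traction replicate 2, its lowest traction library, and 0.38 (adjusted p = 0.363) without traction replicate 1, its highest. With replicate number added to the edgeR model Plau was called (0.57, adjusted p = 0.0367). Plat stood at 88.3, 95.5 and 156.9 CPM in the sham and at 100.4, 165.7 and 285.7 CPM in the traction libraries. Here replicate 1 was the lowest traction library, at 0.445 times the mean of the other two, the reverse of Plaur. The log2 fold change of Plat was 0.70 (SE 0.35, adjusted p = 0.193), and 0.97 (SE 0.29, adjusted p = 0.0800) without replicate 1. Without replicate 3, its highest traction library, it was 0.23 (SE 0.30, adjusted p = 0.669).

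Without replicate 1 of the Tem1WT/WT traction group, 1 of the 7 genes (Serpine2) was called higher, 4 had an unadjusted p under 0.05, where 26.9% of all tested genes did, and the median of the 7 was 0.81; 360 genes of the whole table were called in either direction, 1.86% of those tested.

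**Figure D2:**
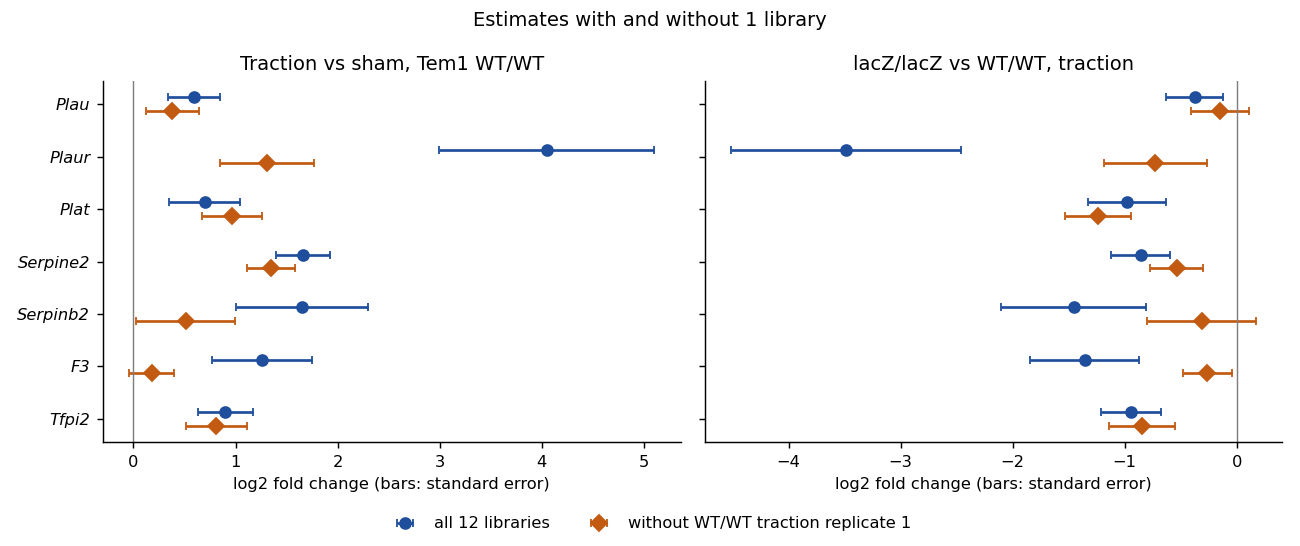
Log2 fold changes with their standard errors, with all 12 libraries (circles) and without replicate 1 of the Tem1WT/WT traction group (diamonds), for traction against sham in Tem1WT/WT mice (left) and Tem1lacZ/lacZ against Tem1WT/WT mice with traction (right). The estimates of Plaur, Serpinb2 and F3 shrink, on the left from 4.05, 1.65 and 1.26 to 1.30, 0.51 and 0.18, that of Plat grows in both panels, and that of Serpine2 goes from 1.66 to 1.35 on the left and from -0.86 to -0.53 on the right.

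Marker levels moved with these results. Neutrophil markers, of which 6 of 11 tested were called higher with traction in Tem1WT/WT mice (median log2 fold change 4.41), were highest in the library where Plaur, Serpinb2 and F3 were highest. They summed to 377.7 to 7740 CPM in the traction and to 120.2 to 138.3 CPM in the sham libraries, with the highest sum in that library. The 12 macrophage and monocyte markers summed to 6161, 5121 and 4232 CPM in the traction libraries and to 2676 to 4486 CPM in the sham libraries of Tem1WT/WT mice, and 1 of 12 was called. Fibroblast markers summed to 46970, 79950 and 122300 CPM in the traction libraries, in the same order as Plat, against 28590 to 48630 CPM in the sham libraries, and 1 of 10 was called. Endothelial markers were also in the order of Plat, at 1022, 1032 and 1164 CPM against 380.1 to 556.5 CPM in the sham libraries. Of them, 8 of 10 were called higher. Differentiated keratinocyte markers, at 1551, 7272 and 9814 CPM in the traction libraries, were in that order as well. Basal and wound-edge keratinocyte markers had a median of 0.65, with none called. Skeletal muscle (-2.83), adipocyte (-1.47), Schwann cell (-0.87), differentiated keratinocyte (-0.73) and mast cell markers (-0.15) had medians below 0. Of these, 1 mast cell marker was called lower. Their part in the levels of the 7 genes was not tested.

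**Figure D3:**
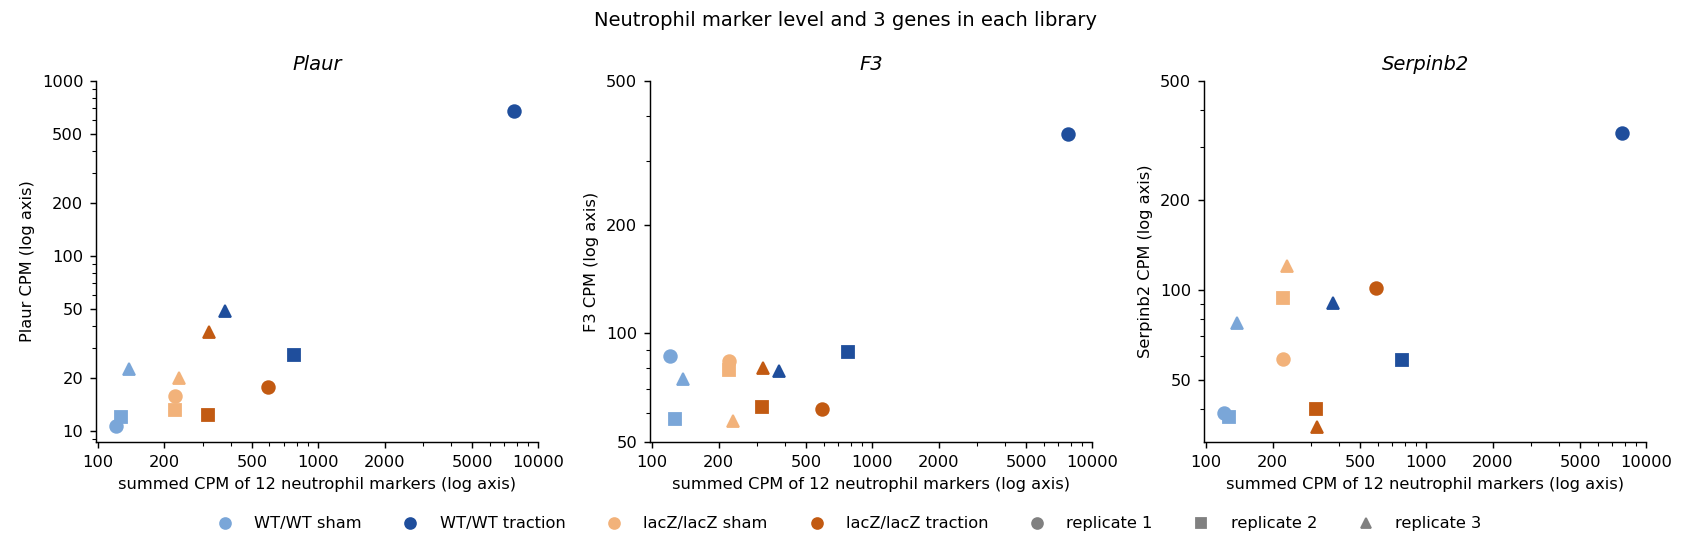
CPM of Plaur, F3 and Serpinb2 in each library (vertical, log axis) against the summed CPM of 12 neutrophil markers (horizontal, log axis), coloured by group, with symbols for replicates. A single point, replicate 1 of the Tem1WT/WT traction group at 7740 CPM of marker level, stands at the upper right of every panel, and the other 11 libraries reach at most 48.6 CPM of Plaur, 88.6 CPM of F3 and 120.4 CPM of Serpinb2.

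The second comparison asked the same of Tem1lacZ/lacZ mice. By edgeR's quasi-likelihood test no gene of the table passed (0% of those tested; 8.12% had an unadjusted p under 0.05, and the smallest adjusted p was 0.598), so 0 of the 7 were called, and 2 had an unadjusted p under 0.05. DESeq2 and limma-voom called 0 of the 7, where they called 28 and 377 of all genes. Traction and sham libraries did not overlap for 2 of the 7, where they did not overlap for 12.9% of all genes. The estimates were above 0 for 3 and below 0 for 4 genes, with a median of -0.11 against -0.01 over all genes.

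Those 2 genes were Serpine2 and Tfpi2, in opposite directions. Serpine2 stood at 46.4, 45.5 and 43.8 CPM in the sham and at 76.6, 90.8 and 57.1 CPM in the traction libraries of Tem1lacZ/lacZ mice, a log2 fold change of 0.73 (SE 0.26, unadjusted p = 0.0178, adjusted p = 0.598). Tfpi2 stood at 26.8, 20.7 and 34.9 CPM in the sham and at 19.5, 12.2 and 17.2 CPM in the traction libraries, a log2 fold change of -0.75 (SE 0.27, unadjusted p = 0.0172, adjusted p = 0.598). In Tem1WT/WT mice all 3 traction libraries of Tfpi2 were above all 3 sham libraries, and in Tem1lacZ/lacZ mice all 3 were below.

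Serpinb2 overlapped between the groups, at 58.7, 94.3 and 120.4 CPM in the sham and 101.9, 40.0 and 34.8 CPM in the traction libraries of Tem1lacZ/lacZ mice, with a log2 fold change of -0.63 (95% confidence interval -2.03 to 0.77). The log2 fold change was -1.24 without replicate 1 of that traction group and -0.36 without replicate 3 of that sham group. The summed level of 9 basal and wound-edge keratinocyte markers was 22190, 25870 and 28930 CPM in those sham and 57460, 11150 and 12670 CPM in those traction libraries, and in each of the 4 groups the library highest in these markers was also highest in Serpinb2. The part of these markers in the level of Serpinb2 was not tested. Plaur stood at 15.9, 13.1 and 20.1 CPM in the sham and at 17.8, 12.4 and 36.7 CPM in the traction libraries (log2 fold change 0.45, interval -1.63 to 2.52). The intervals of the other 3 genes were -0.52 to 0.60 for Plau, -1.01 to 0.50 for Plat and -1.16 to 0.95 for F3. Such intervals leave room for changes of more than 1 log2 unit for Plaur, Plat, Serpinb2 and F3.

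The third comparison set the traction scars of Tem1lacZ/lacZ mice against those of Tem1WT/WT mice. It uses the same Tem1WT/WT traction libraries as the first comparison, so a high value there enters both. All 7 estimates were below 0, with a median of -0.98 against 0.01 over all genes. None of the 7 was called by edgeR's quasi-likelihood test, where 0.106% of all genes were. Of the 7, 6 had an unadjusted p under 0.05, where 26.1% of all genes did. DESeq2 called 4 (Plaur, Serpine2, F3 and Tfpi2), where it called 2334 of all genes (12.4%), and limma-voom 0. Without replicate 1 of the Tem1WT/WT traction group, 3 of the 7 had an unadjusted p under 0.05, where 20.4% of all genes did, and the median was -0.53. The groups did not overlap for 1 of the 7, Tfpi2, where they did not overlap for 26.6% of all genes. In the same comparison neutrophil markers had a median of -2.68, endothelial -0.68, macrophage and monocyte -0.39 and fibroblast markers -0.36. The medians of the other marker lists lay above 0, from 0.03 for basal and wound-edge keratinocyte to 1.16 for skeletal muscle markers. No marker was called, and their part in the levels of the 7 genes was not tested.

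Tfpi2 was 31.4 ± 2.95 CPM in the traction scars of Tem1WT/WT mice and 16.3 ± 3.75 CPM in those of Tem1lacZ/lacZ mice, a log2 difference of -0.94 (SE 0.27, adjusted p = 0.0952), and -0.85 without replicate 1 of the Tem1WT/WT group. Serpine2 was 135.6 ± 49.0 CPM and 74.9 ± 16.9 CPM, a difference of -0.86 (SE 0.26, adjusted p = 0.0994), or -0.53 (adjusted p = 0.240) without that library and -1.10 (adjusted p = 0.0267) without replicate 2. Plaur was 250.3 ± 368 CPM and 22.3 ± 12.8 CPM, a difference of -3.49 (SE 1.03, adjusted p = 0.0982), which shrank to -0.73 (adjusted p = 0.369) without replicate 1 and was -4.02 (adjusted p = 0.0291) without replicate 2. Without that replicate 2, 1421 genes of the whole table were called (7.32%), against 20 with all libraries. In this comparison Plaur overlapped: its highest Tem1lacZ/lacZ library, 36.7 CPM, was above the second library of Tem1WT/WT mice, 27.3 CPM.

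F3 was 174.7 ± 158 CPM in the traction scars of Tem1WT/WT mice and 68.1 ± 10.5 CPM in those of Tem1lacZ/lacZ mice, and the difference of -1.36 (SE 0.49, adjusted p = 0.128) was -0.26 without replicate 1. Serpinb2 was 161.5 ± 152 CPM and 58.9 ± 37.3 CPM, and its difference of -1.46 (SE 0.65, adjusted p = 0.184) was -0.31 without replicate 1. Without replicate 1 of the Tem1lacZ/lacZ traction group instead, the difference of Serpinb2 was -2.08. Plat went the other way: it was 183.9 ± 94.0 CPM and 93.1 ± 9.54 CPM, and its difference of -0.98 (SE 0.35, adjusted p = 0.125) became -1.24 (SE 0.29, adjusted p = 0.167) without replicate 1 and -0.505 (SE 0.295, adjusted p = 0.357) without replicate 3. The Plat libraries of Tem1lacZ/lacZ mice lay at 93.6, 83.4 and 102.4 CPM, inside the range of the 6 sham libraries apart from the one at 83.4 CPM, just under it. Plau, at 77.9 ± 22.1 CPM and 60.1 ± 8.66 CPM, differed by -0.37 (SE 0.25, adjusted p = 0.366), or -0.15 (adjusted p = 0.759) without replicate 1.

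**Figure D4:**
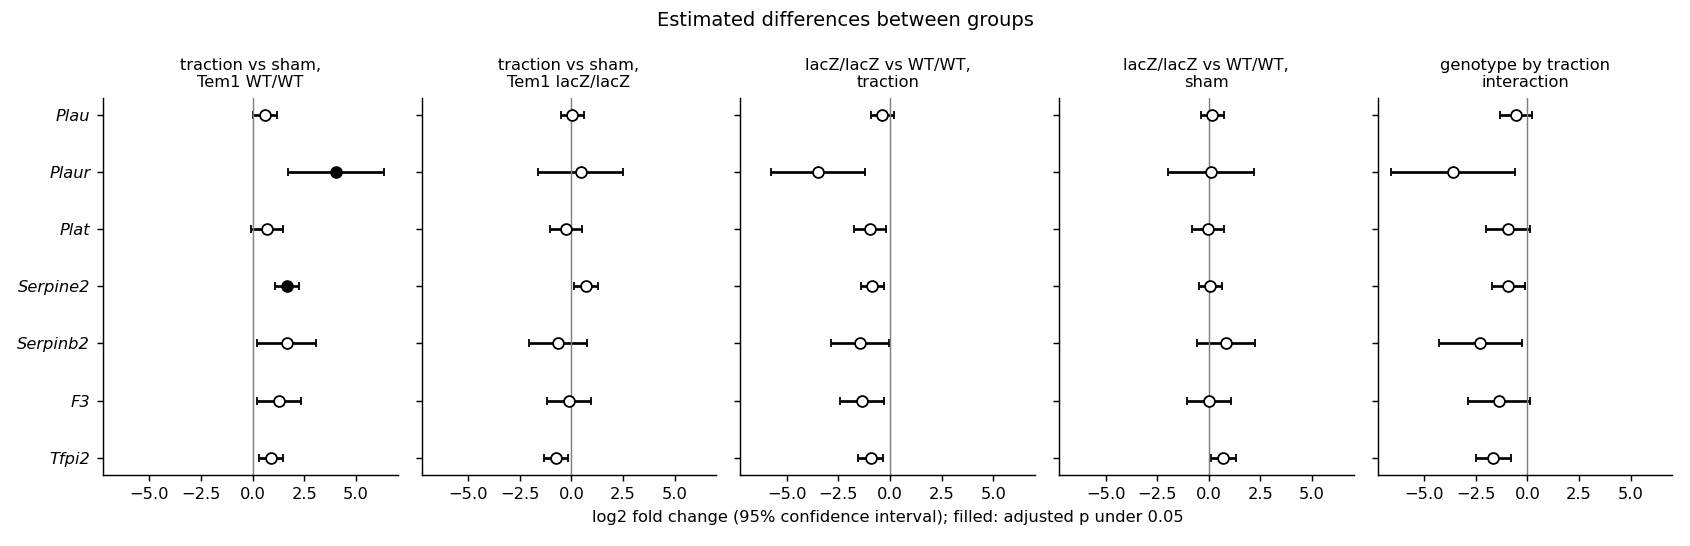
Log2 fold changes with 95% confidence intervals for the 7 genes in the 4 comparisons between groups and in the interaction, from edgeR's quasi-likelihood fit of all 12 libraries; filled points have an adjusted p under 0.05. Filled points are seen in the first panel alone, for Plaur and Serpine2, and the intervals of Plaur are the widest of the 7 genes.

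Without traction, no difference between the genotypes passed the test in these genes. By edgeR's quasi-likelihood test 0 of the 7 were called, where 0.0106% of all genes were. Of the 7, 1 had an unadjusted p under 0.05, where 11.7% of all genes did. The groups did not overlap for 0 of the 7, where they did not overlap for 26.8% of all genes. DESeq2 and limma-voom also called 0 of the 7, where they called 43 and 1 of all genes. Tfpi2 was the gene with an unadjusted p under 0.05: it was 16.8 ± 5.88 CPM in the sham scars of Tem1WT/WT and 27.5 ± 7.13 CPM in those of Tem1lacZ/lacZ mice, a log2 difference of 0.71 (SE 0.27, adjusted p = 0.409). Serpinb2 was 51.4 ± 22.9 CPM and 91.2 ± 31.0 CPM, a difference of 0.83 (interval -0.58 to 2.23). The estimates of the other 5 genes lay between -0.03 for Plat and 0.18 for Plau. The narrowest of their intervals were those of Plau, -0.38 to 0.74, and Serpine2, -0.50 to 0.65, while that of Plaur ran from -1.96 to 2.19. Basal and wound-edge keratinocyte markers had a median of 0.90 here, with sums of 9971 to 18960 CPM in Tem1WT/WT and 22190 to 28930 CPM in Tem1lacZ/lacZ mice. Medians of the other marker lists ran from -1.31 for skeletal muscle to 0.97 for adipocyte markers. No marker was called, and their part in the levels of the 7 genes was not tested.

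The interaction asks whether traction changed a gene by a different amount in the 2 genotypes. All 7 estimates were below 0, with a median of -1.37 against 0.00 over all genes; the 4 groups of libraries behind it are those of the comparisons above. No gene of the table passed by edgeR's quasi-likelihood test (0%), so 0 of the 7 were called; 4 of the 7 had an unadjusted p under 0.05, where 8.91% of all genes did, and DESeq2 called 1, where it called 69 of all genes (0.366%), and limma-voom 0. Tfpi2 was the gene called by DESeq2 (adjusted p = 0.0345), and its estimate by edgeR was -1.65 (SE 0.38, unadjusted p = 0.00116, adjusted p = 0.548), or -1.54 (unadjusted p = 0.00306) without replicate 1 of the Tem1WT/WT traction group. The other 3 were Plaur, at -3.60 (SE 1.37), Serpinb2, at -2.28 (SE 0.91), and Serpine2, at -0.93 (SE 0.37). Without that library they were -0.82, -1.12 and -0.59, none with an unadjusted p under 0.05, while Plat, at -0.95 with it, was -1.19 (unadjusted p = 0.0126) without it and -0.46 (unadjusted p = 0.279) without replicate 3 of the same group. F3, at -1.37 (SE 0.68, unadjusted p = 0.0704) with it, was -0.25 without it. The median of the 7 without it was -0.82, and 2 of them, Tfpi2 and Plat, had an unadjusted p under 0.05, where 7.98% of all genes did. The interaction estimate of Serpinb2 was -2.89 without replicate 1 of the Tem1lacZ/lacZ traction group.

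Around these genes, 19 further genes of the plasminogen system were listed, chosen with earlier results of these data known, and 15 were tested. With traction in Tem1WT/WT mice 4 rose, none fell and 11 did not pass, where 5.61% of all tested genes rose and 3.54% fell, with a median log2 fold change of 0.38. Without replicate 1 of the Tem1WT/WT traction group 2 of the 15 were called, where 1.86% of all genes were. Those that rose were A2m, a broad protease inhibitor, Mrc2, the collagen receptor that joins the urokinase receptor complex, Lrp1, which takes up activator-serpin complexes, and Thbd, thrombomodulin. A2m went from 0.243 ± 0.138 CPM to 5.52 ± 4.75 CPM (log2 fold change 4.46, SE 0.78, adjusted p = 0.0252). Its traction libraries stood at 1.78, 3.91 and 10.9 CPM, and the estimate was 4.85 without replicate 1 and 3.51 (adjusted p = 0.0337) without replicate 3, the highest. Mrc2 went from 104.2 ± 22.6 CPM to 296.4 ± 143 CPM (1.51, SE 0.38, adjusted p = 0.0396). The estimate of Mrc2 was 1.75 (adjusted p = 0.0458) without replicate 1 of the Tem1WT/WT traction group, and its call was lost without replicate 3 of the Tem1WT/WT traction group (1.07, adjusted p = 0.105), replicate 3 of the Tem1WT/WT sham group (0.0590), replicate 3 of the Tem1lacZ/lacZ sham group (0.0636) or replicate 2 of the Tem1lacZ/lacZ traction group (0.0530). Lrp1 went from 460.6 ± 75.1 CPM to 1259 ± 109 CPM (1.45, SE 0.40, adjusted p = 0.0468), with its 3 traction libraries close together at 1302, 1136 and 1340 CPM. Its call was lost without any one of the 12 libraries other than replicate 2 of the Tem1lacZ/lacZ sham group, replicate 2 of the Tem1WT/WT traction group and replicate 1 of the Tem1lacZ/lacZ traction group (log2 fold change 1.39 to 1.60, highest adjusted p = 0.150). Thbd (0.68, adjusted p = 0.0479), named after its values were seen, kept its call without the same 3 libraries and lost it without each of the other 9 (0.53 to 0.82, highest adjusted p = 0.144). Plasminogen itself (Plg) had at most 22 counts in a library and was not tested. The surface receptors Plgrkt (0.06), Anxa2 (0.38) and S100a10 (-0.29) did not pass and are named likewise after their values were seen. In the Tem1WT/WT traction libraries Mrc2 stood at 175.9, 259 and 454.4 CPM. Mrc2 and A2m were there in the same order as the summed fibroblast, endothelial and differentiated keratinocyte markers, and Lrp1 was not. Endothelial markers were higher in the same comparison, with 8 of 10 called. The part of these markers in the levels of the listed genes was not tested.

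Of 25 genes of coagulation and fibrin, 19 were tested, 2 rose with traction in Tem1WT/WT mice and none fell, against 5.61% and 3.54% of all genes, with a median of 0.22. Thbs1, thrombospondin 1, a matrix protein that binds plasminogen and fibrin, went from 209.1 ± 23.1 CPM to 1590 ± 1140 CPM (log2 fold change 2.93, SE 0.51, adjusted p = 0.0252), and was 2.14 (adjusted p = 0.0385) without replicate 1. The thrombin receptor F2rl3 (1.90, adjusted p = 0.0447) was named after its values were seen. F2rl3 was low, with a mean log2 CPM of -0.28 and at most 116 counts in a library. Its traction and sham libraries of Tem1WT/WT mice overlapped. Its call was kept without replicate 1 of the Tem1WT/WT traction group (2.29, adjusted p = 0.0384) or of the Tem1lacZ/lacZ traction group and lost without each of the other 10 libraries (1.57 to 2.26, highest adjusted p = 0.144). The fibrinogen genes Fga, Fgb and Fgg had at most 6, 0 and 20 counts in a library. Tfpi, the inhibitor of the tissue factor complex and a relative of Tfpi2, had an estimate of 0.92 (adjusted p = 0.0531) and was chosen in the same way.

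Of 33 other serpins, 30 were tested, none rose and 3 fell, against 5.61% and 3.54% of all genes. The 3 are intracellular serpins of clade B, and the median of the list was 0.28. The 7 differentiated keratinocyte markers, none of them called, had a median of -0.73 in the same comparison and summed to 1551, 7272 and 9814 CPM in the traction and 4868 to 8042 CPM in the sham libraries of Tem1WT/WT mice. Their part in the levels of these serpins was not tested. Serpinb6d went from 32.9 ± 7.50 CPM to 5.86 ± 4.87 CPM (log2 fold change -2.49, SE 0.65, adjusted p = 0.0423), Serpinb13, an epidermal serpin, from 1.84 ± 0.234 CPM to 0.590 ± 0.112 CPM (-1.63, SE 0.39, adjusted p = 0.0355) and Serpinb8 from 89.6 ± 6.04 CPM to 48.0 ± 12.4 CPM (-0.90, SE 0.25, adjusted p = 0.0464). The estimate of Serpinb6d was -3.41 (adjusted p = 0.0126) without replicate 2 of the Tem1WT/WT traction group. The 3 calls were lost without replicate 1 of the Tem1WT/WT traction group (adjusted p = 0.0916, 0.0714 and 0.0938) and without replicate 3 of any of the 4 groups (0.0520 to 0.106), those of Serpinb6d and Serpinb8 also without replicate 1 or 2 of the Tem1lacZ/lacZ sham group (0.0513 to 0.0554), and all calls in the 3 lists were lost without replicate 1 or 2 of the Tem1WT/WT sham group. In the other comparisons 0 of the 64 tested genes of the 3 lists were called by edgeR. Of these, 7 (traction in Tem1lacZ/lacZ mice), 19 (genotype with traction), 4 (genotype without traction) and 5 (interaction) had an unadjusted p under 0.05, where 8.12%, 26.1%, 11.7% and 8.91% of all genes did. DESeq2 called 0 of the 64 for traction in Tem1lacZ/lacZ mice, 12 for genotype with traction, where it called 12.4% of all genes, 0 for genotype without traction and 0 for the interaction. Over all genes DESeq2 called 0.149%, 0.228% and 0.366% in the other 3 comparisons. In the same order limma-voom called 4, 0, 0 and 0 of the 64, where it called 377, 16, 1 and 0 of all 18853 genes.

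The genes most like each of the 7 were found by the mean absolute difference of standardised log2 CPM over the 12 libraries, among 13637 genes; the median over all these genes was between 1.02 and 1.09. This is a description, and the libraries, their depth and their groups are shared by all genes. Plaur was closest to Osm (0.137), Entpd1 (0.143) and Cd14 (0.148). Osm, a cytokine of myeloid cells, stood at 243.5, 4.13 and 11.3 CPM in the traction libraries of Tem1WT/WT mice, and the monocyte receptor Cd14 at 979.1, 55.9 and 93.7 CPM. F3 was closest to Cmtm6 (0.160), Irf1 (0.177) and Nfkbia (0.177), the last of which encodes an inhibitor of NF-κB and stood at 1288, 117.5 and 116.4 CPM in those libraries. In each of these genes replicate 1 was the highest.

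Serpine2 was closest to Clstn2 (0.174), Spon1 (0.215) and Ing1 (0.225). Spon1, a secreted matrix protein, stood at 64.4 ± 23.6 CPM in the sham and 198.8 ± 51.5 CPM in the traction scars of Tem1WT/WT mice, and at 64.5 ± 9.97 CPM and 93.8 ± 10.5 CPM in those of Tem1lacZ/lacZ mice. Serpinb2 was closest to Clic1 (0.186), Nubp2 (0.289) and Pdia6 (0.297). The nearest genes of Tfpi2 were Tnfaip6 (0.307), Ssr3 (0.324) and Rhoa (0.337), those of Plat were Sec23a (0.254), Cyp20a1 (0.282) and Ndrg4 (0.291), and those of Plau were Npc2 (0.336), Lrpap1 (0.345) and Ttc39c (0.362). Tnfaip6, a hyaluronan-binding protein, stood at 26.7 ± 15.0 and 63.5 ± 19.9 CPM in the sham and traction scars of Tem1WT/WT mice and at 37.3 ± 16.7 and 17.7 ± 6.16 CPM in those of Tem1lacZ/lacZ mice.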

How the data were processed

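Scar RNA of 12 mice was sequenced by the authors from TruSeq Stranded mRNA libraries; per the labels and methods, reads were trimmed with fastp 0.20.0, aligned to GRCm38 with HISAT2 2.1.0 and counted with featureCounts 2.0.0. The deposited values are whole-number counts per gene and library, not normalized. The annotation, strandedness and multi-mapping options of featureCounts were not given in the sources used here, so reads from overlapping antisense genes may not be separated. The 7 genes and the lists of related genes were chosen with earlier results of these data known.

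Groups were taken from the genotype and treatment labels. Of 35976 listed genes, 4 rows fell under a repeated symbol. edgeR 4.0.16 (R 4.3.3) filtered genes by group, scaled libraries by TMM and fitted 1 robust quasi-likelihood model of the 4 groups (8 residual degrees of freedom) to 18853 genes; a gene was called at p under 0.05 after Benjamini-Hochberg adjustment across all of these. Standard errors are the log2 fold change over the root of F. The depth of 41536788 to 64644293 counts per library left replicate spread (a common biological coefficient of variation of 34.2%), not counting error, as the main error of the 7 genes. No 2 libraries of a group agreed within sampling noise (chi-square per gene at least 101.3 over 12 pairs). Every gene of the 7 is named; of each list, up to 3 called genes with the largest rise and 3 with the largest fall at a mean log2 CPM of at least 0 are named; the 3 nearest genes of each of the 7 have a mean log2 CPM of at least 1. The study itself used DESeq2. Alternatives were DESeq2 1.42.0, limma-voom 3.58.1 with sample weights, other scalings and filters, a replicate block, the 6 libraries of a comparison alone, other thresholds and each library left out. The script was tested on simulated data. Figures were drawn with matplotlib 3.10.9. Some genes were fitted with the rest but are not reported here.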

Additional observations from a re-analysis of the deposited data

Results flagged for a closer look

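The traction libraries of Tfpi2 lay on opposite sides of the sham libraries in the 2 genotypes: all 3 were above all 3 sham libraries in Tem1WT/WT mice and below them in Tem1lacZ/lacZ mice. Groups did not overlap, in either direction, for 35.7% and 12.9% of all genes. The share with both, in opposite directions, was not counted. This pattern flagged the gene, and the interaction below uses the same values. The sham groups also differed, at 16.8 CPM in Tem1WT/WT and 27.5 CPM in Tem1lacZ/lacZ mice (log2 difference 0.71). Neither traction effect passed edgeR's quasi-likelihood test on its own (adjusted p = 0.0577 and 0.598). The one in Tem1WT/WT mice was called in 3 of 21 alternatives, with a highest adjusted p of 0.186. It passed with DESeq2 (0.91, adjusted p = 0.0175), which called 21.5% of all genes. It passed with edgeR and the replicate block (0.93, adjusted p = 0.0382, 7.78% of all genes called). It also passed with edgeR without replicate 3 of the Tem1WT/WT sham group (1.22, adjusted p = 0.0391, 4.22% of all genes called). The test of the difference, the genotype by traction interaction, gave a log2 estimate of -1.65 (SE 0.38), with an unadjusted p of 0.00116 and an adjusted p of 0.548 by edgeR's quasi-likelihood test and an adjusted p of 0.0345 by DESeq2. Over the alternatives the estimate lay between -1.98 and -1.41 and the adjusted p between 0.0345 and 0.825. The cause was not tested.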

How the results depend on the processing

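The precision rests on 3 mice a group, and most of the estimates of Plaur, Serpinb2 and F3 rested on 1 library. For traction in Tem1WT/WT mice all 7 genes kept their direction in every alternative. Serpine2 was called in 18 of 21 alternatives (log2 fold change 1.33 to 1.91) and Plaur in 8 of 21 (1.30 to 4.59). With upper quartile scaling the median of all genes moved to -0.12 in that comparison and to 0.14 between genotypes with traction. The calls were 1057 higher and 668 lower in the main analysis, 734 and 939 with upper quartile scaling, 614 and 121 with limma-voom and 2234 and 1813 with DESeq2. A cause was not tested for any of these changes, beyond the fewer libraries or genes that a setting leaves.

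The counts of called genes below are to be read against the share of all genes called in the same setting. For traction in Tem1WT/WT mice that share was 9.15% in the main analysis, 3.54% with all genes of at least 1 count, 10.5% with at least 10 counts in every library, 8.87% with upper quartile scaling, 21.5% with DESeq2, 3.9% with limma-voom, 7.78% with the replicate block, 0% with only 6 libraries, 0% at an adjusted p under 0.01, 22.2% at 0.1 and 0% to 14.7% without a library. Between genotypes with traction it was 0.106%, with 12.4% by DESeq2, 7.35% at 0.1 and 0.0155% to 7.32% without a library.

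For traction in Tem1WT/WT mice, 2 of the 7 genes were called; the count was 1 with all genes of at least 1 count, 5 with DESeq2, 1 with limma-voom, 0 with only the 6 libraries compared, 0 at an adjusted p under 0.01, and 0 to 5 when each library was left out. Between genotypes with traction, 0 were called; DESeq2 gave 4, an adjusted p under 0.1 gave 3, and leaving out a library gave 0 to 2. In the interaction DESeq2 gave 1 against 0. Of the plasminogen list 4 genes were called with traction in Tem1WT/WT mice; the count was 1 with all genes of at least 1 count, 2 with at least 10 counts in every library, 2 with upper quartile scaling, 2 with limma-voom, 0 with 6 libraries, 0 at 0.01 and 0 to 5 without a library. Of the coagulation list 2 were called; the count was 1 with all genes, 1 with upper quartile scaling, 4 with DESeq2, 1 with the replicate block, 0 with 6 libraries, 0 at 0.01, 4 at 0.1 and 0 to 3 without a library. Of the other serpins 3 were called; the count was 9 with DESeq2, 0 with limma-voom, 0 with 6 libraries, 0 at 0.01, 9 at 0.1 and 0 to 7 without a library. Of the 3 lists together, 0 were called in the other comparisons; limma-voom gave 4 for traction in Tem1lacZ/lacZ mice, DESeq2 gave 12, an adjusted p under 0.1 gave 6 and leaving out a library gave 0 to 7 between genotypes with traction, and leaving out a library gave 0 to 1 in the interaction.

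None of the log2 fold changes that turned sign was called. For traction in Tem1lacZ/lacZ mice Plau was -0.0098 and F3 0.12 with limma-voom. Between genotypes without traction Plat was 0.023 with upper quartile scaling, 0.046 with limma-voom and 0.0095 with the replicate block, and F3 was -0.019 with all genes and -0.075 with limma-voom. When each library was left out, the ranges that crossed 0 were, for traction in Tem1lacZ/lacZ mice, -0.12 to 0.25 (Plau), -0.12 to 0.74 (Plaur) and -0.25 to 0.038 (F3), and, between genotypes without traction, -0.018 to 0.35 (Plau), -0.0805 to 0.54 (Plaur), -0.18 to 0.28 (Plat), -0.0748 to 0.17 (Serpine2) and -0.12 to 0.15 (F3).

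Replicate numbers mark different mice, and the labels name nothing else that libraries of a number share. Deviations of same-numbered libraries from the group means correlated at -0.32 to 0.25 over 18 pairs (8 above 0.1). The median was 0.09, against -0.02 for the other pairs. Of the 12 libraries, 8 were closest to one of their own number, a hint from the data and not the design. With the replicate block 3 of the 7 genes (7.78% of all genes) were called with traction in Tem1WT/WT mice, Serpine2, Plau (0.57, adjusted p = 0.0367) and Tfpi2 (0.93, adjusted p = 0.0382), and Plaur (3.43, adjusted p = 0.0787) was not; the calls of Serpinb8 (-0.90, adjusted p = 0.0669), Serpinb6d (-2.42, adjusted p = 0.0628), Lrp1 (1.47, adjusted p = 0.0527) and F2rl3 (1.78, adjusted p = 0.0524) were lost.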
